A study of Rattus norvegicus with 18 samples.

Results

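The sites described here are the CpGs of the rat striatum that had few other measured CpGs close by and little methylation in the Untreated animals. They were chosen from reduced representation bisulfite sequencing (RRBS), in which genomic DNA is cut with MspI, short fragments are kept and unmethylated cytosines are converted so that they read as T. A CpG entered the set when it lay on chr1 to chr20 of the rn6 build and had at least 10 reads on a cytosine in each of 18 striata, which left 292497 CpGs. A CpG was called sparse when at most 4 other CpGs of the set lay within 100 bp, and low when its mean methylation over the 6 Untreated striata was under 20%. CpGs outside the set were not counted, so that a sparse CpG can lie in DNA with many CpGs. Both conditions held for 65845 CpGs, or 22.5% of the set and a part of 235675 sparse CpGs. The low Untreated level is therefore the choice itself and not a finding, while the L-DOPA and L-DOPA + Riluzole striata took no part in it.

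CpG methylation in mammalian DNA is laid down on most CpGs outside CpG islands, and it is kept away from many active promoters and enhancers. In the brain, sites with little methylation outside the densest CpG islands occur at the edges of islands, at promoters with fewer CpGs and at regulatory elements. How many of the sparse low CpGs lie at such places, or inside dense islands, was not examined. In bulk tissue a methylation percentage is the share of reads with a protected cytosine, over all cells and both copies of the site, so that neurons and glia of the striatum cannot be told apart in these values. Bisulfite reads also do not separate a converted cytosine from a T carried in an animal's own DNA, and the animals' genotypes were not analysed here.

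The series holds 9 male juvenile Wistar rats, each of which received a 6-OHDA injection on 1 side of the brain at postnatal day 21, a toxin that removes the dopamine input of the striatum. From day 35 to day 49 the animals received saline (Untreated, UNT), L-DOPA (with benserazide), the dopamine precursor that causes involuntary movements in this model, or L-DOPA with Riluzole, a drug that dampens glutamate release (L-DOPA + R), 3 rats each. They received a last treatment at day 53, after which tissue was taken. The lesioned and the control (contralateral) striatum of every rat were sequenced, so that every treatment has 6 striata of 3 rats and all control striata come from lesioned animals. Rat numbers are used within a treatment only, and rat 1 of UNT and rat 1 of L-DOPA are different animals. The files listed 30304520 to 49146750 cytosine calls for each UNT striatum, 18480983 to 30778121 for L-DOPA and 19402864 to 25865285 for L-DOPA + R. Over the sparse low CpGs the median coverage was 20 to 61 reads for each striatum, so that 1 read is worth several points in the shallower striata. In the unmethylated spike-in DNA 0.301% to 0.929% of cytosines stayed unconverted, and values of that size at a CpG cannot be told apart from incomplete conversion.

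Most of these CpGs were close to unmethylated in all treatments. In UNT, 26411 of them (40.1%) had a mean under 1%, 7269 (11%) lay at 1% to 2%, 16487 (25%) at 2% to 5%, 8323 (12.6%) at 5% to 10%, 3978 (6.04%) at 10% to 15% and 3377 (5.13%) at 15% to 20%. In L-DOPA, which the choice did not use, 40.4% had a mean under 1% and 1091 (1.66%) had a mean of 20% or more. In L-DOPA + R the shares were 40.8% and 1.23% (809 CpGs). The CpGs that left the low range came mainly from its upper edge: of the 3377 at 15% to 20% in UNT, 828 (24.5%) had 20% or more in L-DOPA and, with added Riluzole, 577 (17.1%), against 51 (0.102%) and 45 (0.0897%) of the 50167 that were under 5% in UNT. Not one methylated read was found in any of the 18 striata at 4948 CpGs (7.51%). For comparison, that share was 11.8% of the 47593 CpG-dense low sites, those with more than 4 other CpGs within 100 bp.

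**Figure D1:**
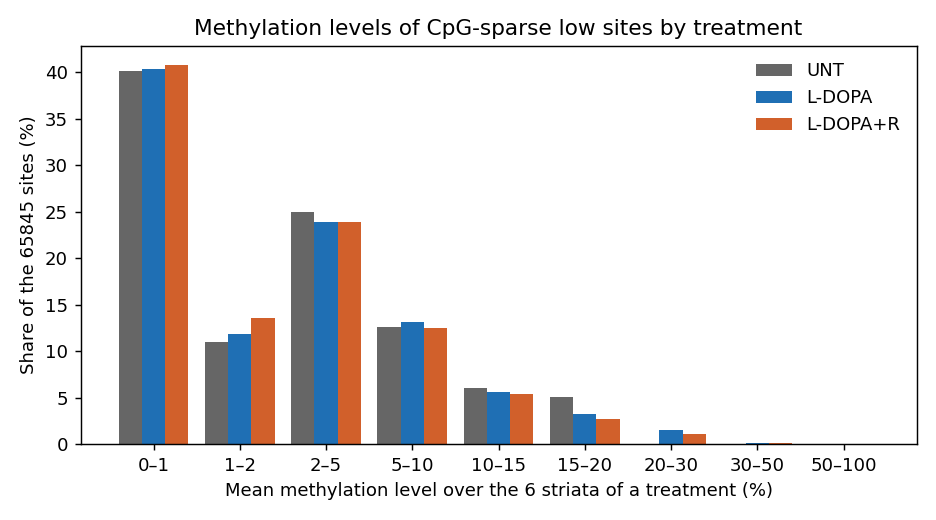
Share of the 65845 sparse low CpGs (vertical axis, percent) in bins of mean methylation (horizontal axis, percent), with 1 bar for each treatment (mean of 6 striata). The UNT bars end at 20% because the sites were chosen there; in L-DOPA 1.66% of the CpGs reach 20% or more, and with added Riluzole 1.23%.

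The mean over the sparse low CpGs was much the same in every striatum. It was 3.79%, 3.68% and 3.51% in the control striata of UNT rats 1, 2 and 3 and 3.69%, 3.51% and 3.58% in their lesioned striata. In L-DOPA it was 3.75%, 3.72% and 3.43% in the control and 3.82%, 3.54% and 3.64% in the lesioned striata. In L-DOPA + R it was 3.16%, 3.32% and 3.58% in the control and 3.47%, 3.29% and 3.58% in the lesioned striata. The groups overlapped, and the lowest values belonged to 3 of the 6 L-DOPA + R striata. The CpG-dense low sites lay lower throughout, at 1.55% to 1.70%. Between 44.5% and 62.6% of the sparse low CpGs had no methylated read in a given striatum, a share that depends on the depth.

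The coverage of low sites relative to high sites moved with these means. The ratio of the median reads at sparse low CpGs to the median reads at sparse CpGs over 80% was above 1.1 in 4 treated striata: 1.48 in control 1, 1.38 in control 2 and 1.35 in lesioned 2 of L-DOPA + R, and 1.19 in control 3 of L-DOPA. These 4 striata had means of 3.16% to 3.43% over the sparse low CpGs, and the other 14, with ratios of 0.833 to 1.1, had 3.47% to 3.82%. The part of this ratio in the means was not tested.

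**Figure D2:**
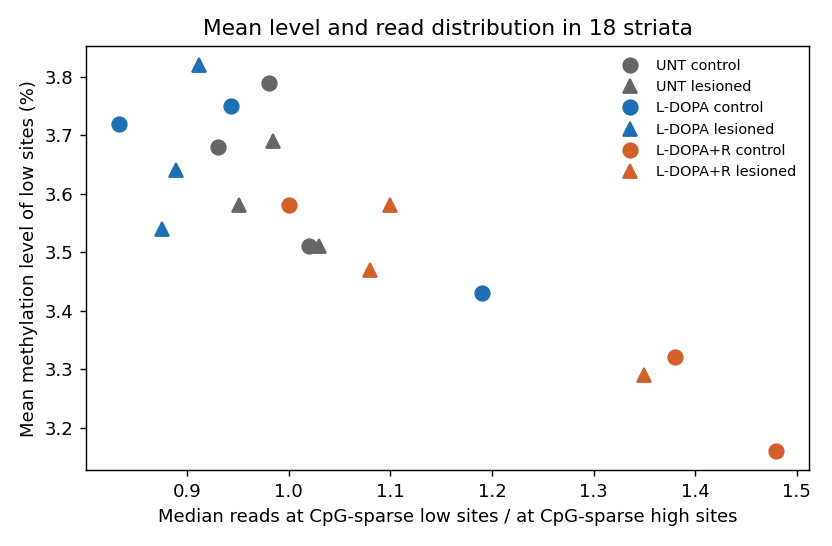
Mean methylation of the sparse low CpGs (vertical axis, percent) against the ratio of median reads at sparse low to sparse high CpGs (horizontal axis), 1 point for each of the 18 striata, coloured by treatment with the marker showing the side. The 4 striata to the right of a ratio of 1.1 are the 4 with the lowest means, 3.16% to 3.43%.

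Although sparse by the 100 bp count, the CpGs tended to lie near others like them. They had 0 other CpGs of the set within 100 bp in 8.55% of cases, 1 in 18.9%, 2 in 24.4%, 3 in 25.4% and 4 in 22.8%. Within 1 kb the median number of other CpGs was 7, compared with 2 around sparse high CpGs and 13 around dense low CpGs. Joined whenever the next lay at most 100 bp away, the members formed 27284 stretches, of which 17722 held at least 2 members and together 56283 CpGs (85.5%). The longest were chr8:103190687-103191078 with 13 members, chr18:56179693-56180163 with 13 of 14 CpGs of the set and chr2:28048758-28049040 with 10. In the treated striata the mean of a member ranged over 0% to 5.54% in the chr8 stretch, 1.05% to 13.8% in the chr18 stretch and 0.185% to 5.83% in the chr2 stretch. By chromosome, the sparse low share of the set ran from 18.2% on chr13 to 27.2% on chr10.

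The methylation of the surroundings separated the CpGs into unequal classes. Of the 60212 CpGs with another CpG of the set within 100 bp, 57107 (94.8%) had neighbours that averaged under 20% in the treated striata, 2663 (4.42%) had neighbours at 20% to 80%, and 442 (0.734%) had neighbours over 80%. The last class holds low CpGs inside methylated DNA. Of its members 23.1% had no methylated read in any of the 18 striata, against 8.15% of those with low neighbours and 2.1% of those with intermediate neighbours. Yet 25.6% of the same 442 (113 CpGs) had treated rats that lay more than 30 points apart, taking the mean of both striata as the value of a rat, against 4.02% with intermediate and 0.0946% with low neighbours. Cytosines that follow another one of their strand at a distance of 46 to 50 bases were found at 32.8% of the 442 and at 18.7% of the CpGs with low neighbours. Their part in these shares was not tested. They are called cytosines at a read end below by this spacing alone, since their place in a read was not checked.

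The low CpGs inside methylated DNA with the greatest difference from their neighbours were without a methylated read in all 18 striata. At chr8:104143510 the 4 neighbours averaged 98.8% in the treated striata, and the site itself had 0 methylated of 324 reads, which allows a level of up to 0.926%. At chr20:43968731, with neighbours at 98.7%, there were 0 of 479 reads (up to 0.626%). At chr12:37285294 (neighbours 97.8%, 706 reads) and chr7:133031720 (neighbours 97.7%, 694 reads) the limits were 0.425% and 0.432%. Such limits, set by 3 reads of the total, cover counting error only, since RRBS reads without molecular identifiers are not independent molecules.

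**Figure D3:**
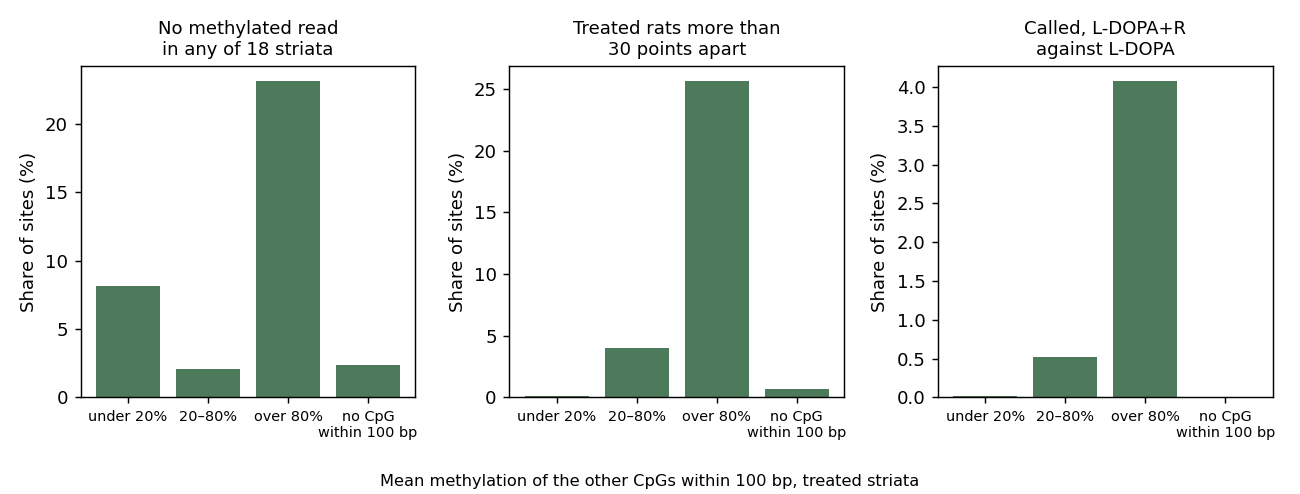
The sparse low CpGs in 4 classes of surroundings (mean of other CpGs within 100 bp in the treated striata: under 20%, 20% to 80%, over 80%, or no neighbour). The panels show, in percent of a class, the share with no methylated read in 18 striata, the share with treated rats more than 30 points apart and the share called between L-DOPA + R and L-DOPA. The class with neighbours over 80% holds 0.671% of the CpGs, and 25.6% of them have treated rats more than 30 points apart.

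The first comparison asked whether Riluzole, added to L-DOPA, went with other methylation at these sites. Each CpG of the whole table with enough reads was tested with a logistic model of methylated and unmethylated reads with overdispersion, and was called at a q (Benjamini-Hochberg adjusted p over all CpGs tested) under 0.01. With both sides pooled, 6 L-DOPA + R against 6 L-DOPA striata, 0.0477% of 568416 CpGs were called, and 39 of the 65845 sparse low CpGs (0.0592%), which is near that background. Of the 39, 25 were lower in L-DOPA + R (0.0276% of all CpGs tested were called lower) and 14 were higher (0.0201%). An F test with the same overdispersion called 0 of them, with 2449 (3.72%) at an unadjusted p under 0.05 against 3.93% of all CpGs. Because 6 striata come from 3 rats, the p-values count both striata of a rat as samples; with their reads added up and the rat as the unit, 30 were called (0.0456%, against 0.034% of all CpGs). In the control striata alone 21 were called (9 higher, 12 lower; 0.0264% of 378782 CpGs tested), and in the lesioned striata alone 23 (8 higher, 15 lower; 0.0284% of 377092). Without replicate 3 of both treatments the counts were 73 for both sides (0.111%, against 0.113% of all CpGs), 43 for the control (0.0653%, against 0.0645%) and 37 for the lesioned striata (0.0562%, against 0.0502%). Without the 4 striata with a coverage ratio above 1.1, 32 were called (0.0486%, against 0.0404%), 20 higher and 12 lower, so that the split of directions depended on them. The control and lesioned lists shared 13 CpGs, 61.9% of the first and 56.5% of the second.

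The called CpGs were chosen by the difference between these same striata. Their sizes and directions therefore describe the choice and lend the calls no further weight. The median difference in summed reads was 33.4 points, with a range of 8.24 to 78.5, and 35 of the 39 kept 1 direction when each L-DOPA + R rat was set against each L-DOPA rat, 9 comparisons in all. At 22 of the 25 lower CpGs every L-DOPA + R rat was under 5%, and at 14 of them no methylated read was found in any L-DOPA + R striatum. At 12 of the 14 higher CpGs every L-DOPA rat was under 5%. UNT rats were not uniform at these CpGs: 16 of the 39 had at least 1 UNT rat at 20% or more although the mean over UNT was under 20%. By surroundings, 18 of the 39 had neighbours over 80% (4.07% of that class), 14 had intermediate neighbours (0.526%) and 7 had low neighbours (0.0123%). The shares over all CpGs with such neighbours were not computed. Whether this spread is particular to the sparse low CpGs was therefore not tested.

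**Figure D4:**
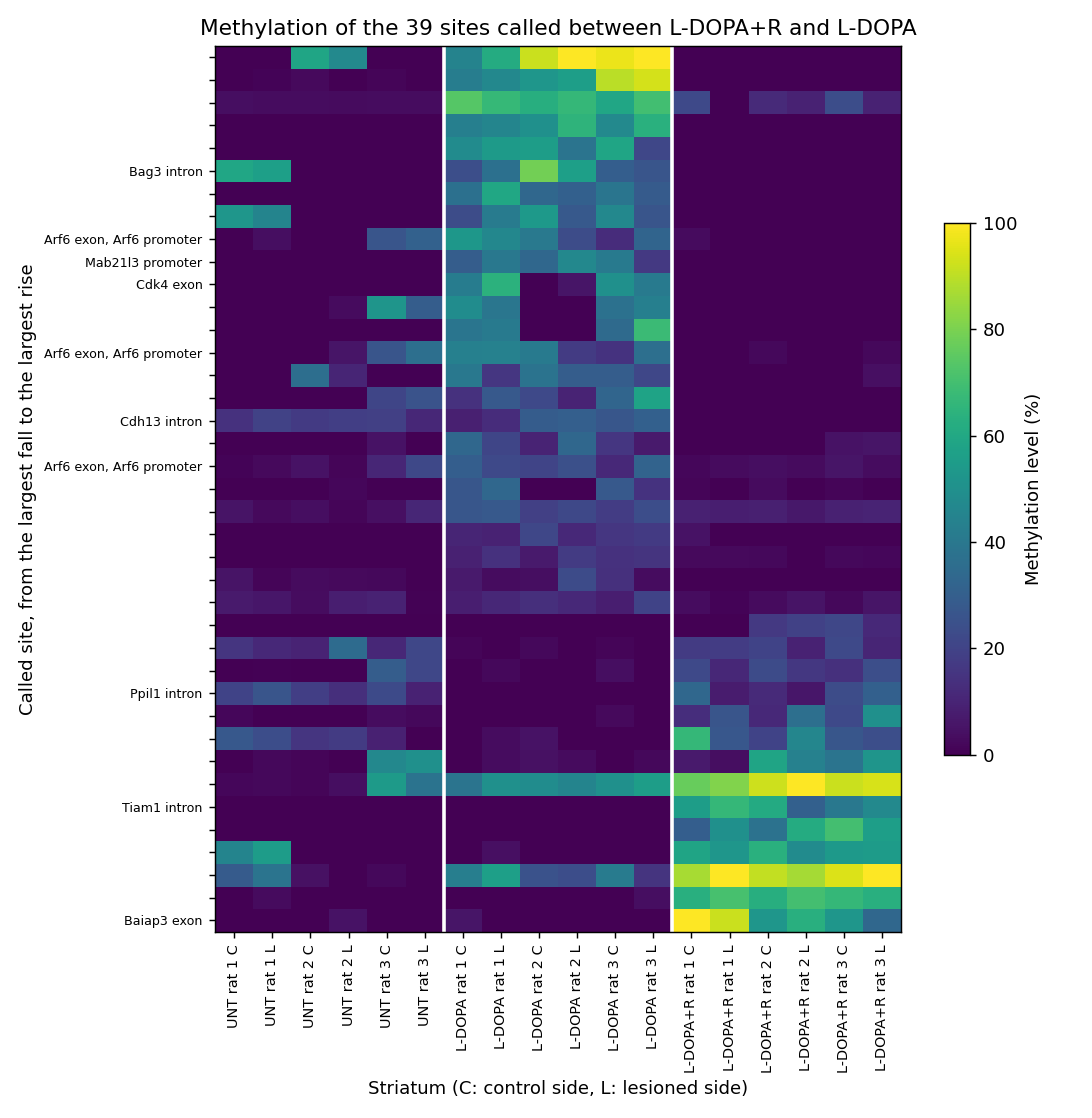
Methylation (colour, percent) of the 39 sparse low CpGs called between L-DOPA + R and L-DOPA, 1 line for each CpG and 1 column for each of the 18 striata, ordered by treatment and rat. At 14 of the CpGs that are lower in L-DOPA + R its 6 columns are all at 0%, and several CpGs have single raised UNT rats.

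The CpG with the smallest p, chr16:14831126, lies where the annotation used names no gene and has 1 neighbour at 91%. In UNT its values were 0% to 3.12% with a median of 0%, and in L-DOPA 0% to 3.85% with a median of 0%. In L-DOPA + R they were 62.8% to 71% with a median of 65%, so that the groups did not overlap. The rats of L-DOPA + R averaged 66.1% ± 1.06 (SD, n = 3) and those of L-DOPA 0.641% ± 1.11, a difference of 65.2 points in summed reads (logistic model, q = 6.54e-39; 18 to 43 reads for each treated striatum). At a distance of 6391 bp, chr16:14837517 had 0% in all 12 UNT and L-DOPA striata. Its L-DOPA + R values were 30% at the lowest, 53% at the median and 70.3% at the highest (52.1 points, logistic model, q = 5.93e-27), and its 4 neighbours averaged 95.7%. The third site on this chromosome, chr16:51026603, had 0% to 4.17% in L-DOPA and 48.3% to 63.6% in L-DOPA + R (medians 0% and 54.3%; 52.7 points, q = 1.99e-24). Here UNT was mixed, since rat 1 had 45.2% in the control and 55.2% in the lesioned striatum and the other UNT striata had 0%. The q values for the pooled striata here and below count both striata of a rat as samples. By the F test no sparse low CpG was called between L-DOPA + R and L-DOPA.

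In the opposite direction, chr2:142742283 had methylated reads only in the L-DOPA striata. Its L-DOPA values were 36.8%, 33.3% and 39% in the control and 59.4%, 30.8% and 28.6% in the lesioned striata, while all 6 L-DOPA + R and all 6 UNT striata were at 0% with 20 to 111 reads. The difference was -37.1 points in L-DOPA + R against L-DOPA (logistic model, q = 9.41e-26). The same layout was found at chr10:77931839, where L-DOPA ran from 43.3% to 65% with a median of 48.5% and the other 12 striata had 0%. In the lesioned striata the difference there was -56 points (logistic model, q = 2.95e-11). In the lesioned striata the smallest p belonged to chr12:30439494 (-61.1 points, q = 5.32e-22), which stood apart by its depth. Its values were 59.1% to 73.7% in L-DOPA (69 to 137 reads), 0% to 23.8% in L-DOPA + R (21 to 36 reads) and 2.95% to 3.66% in UNT, where 4030 to 5947 reads covered it. It has a cytosine at a read end, and the part of the unequal coverage in its levels was not tested.

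Of the 39 called CpGs, 10 lay in a named gene by the annotation used in the study, and apart from those picked by their p-value they are named here after their values were seen. Tiam1, which activates the GTPase Rac1 and acts on the cytoskeleton of dendritic spines, held the intronic CpG chr11:29986999. All 12 UNT and L-DOPA striata had 0% there, and the L-DOPA + R striata had 55.6%, 61.1% and 40% on the control and 66.7%, 30.8% and 47.1% on the lesioned side (51.1 points, q = 6.83e-19), from only 10 to 18 reads each. Baiap3, a vesicle release protein of the Munc13 kind, had an exonic CpG (chr10:14604593) at 33.3% to 100% in L-DOPA + R, with rats at 96%, 57.9% and 42.9%, against 0% to 5.71% in L-DOPA (65.4 points, q = 1.99e-05). An intronic CpG of Ppil1, a peptidyl-prolyl isomerase of the spliceosome (chr20:6652149), had 0% in all 6 L-DOPA striata and 5.88% to 33.3% in L-DOPA + R (19.6 points, q = 1.34e-07). UNT was similar to L-DOPA + R at this site, with 9.68% to 26.3%.

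The other named genes had lower values in L-DOPA + R. Bag3, a co-chaperone of HSP70 in selective autophagy, had an intronic CpG (chr1:199962655) at 24% to 78.9% in L-DOPA and at 0% in all 6 L-DOPA + R striata (-41.6 points, q = 4.45e-07). In UNT, rat 1 alone was raised there, to 59.3% in the control and 56.4% in the lesioned striatum. An exonic CpG of Cdk4, the cyclin D dependent kinase of the cell cycle (chr7:70352445), was at 42.1% and 64.3% in L-DOPA rat 1 and at 50% and 40.7% in rat 3, but at 0% and 5.56% in rat 2, and at 0% in every other striatum (-35.2 points, q = 0.000686). The CpG at the promoter of Mab21l3 (chr2:204255609) had 16.7% to 46.7% in L-DOPA and 0% in the 12 other striata (-35.2 points, q = 1.22e-11). Cdh13, a cadherin held in the membrane by a lipid anchor, differed from these by its UNT level. Its intronic CpG (chr19:51472325) had 11.1% to 19.6% in UNT, 8.7% to 30.8% in L-DOPA and 0% in all L-DOPA + R striata (-23 points, q = 5.16e-11).

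Of the 39 called CpGs, 3 lay in Arf6, a small GTPase that moves membrane between endosomes and the cell surface and acts on actin in dendrites, and they are described more closely, after their values were seen, because no other gene held more than 1. In the RefSeq gene on GRCr8 the spacing of the measured CpGs fell on a CG at 19 of 19 places in the 300 bases around the start, so that their place can be read from that sequence. The window of 250 bases before the start holds 39 CG and lies at chr6:93589527-93589776 on GRCr8, plus strand, and is shown with its 14 measured CpGs in capitals to place the measured CpGs before the start beside the called ones after it.

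Arf6 promoter, bases -250 to -1: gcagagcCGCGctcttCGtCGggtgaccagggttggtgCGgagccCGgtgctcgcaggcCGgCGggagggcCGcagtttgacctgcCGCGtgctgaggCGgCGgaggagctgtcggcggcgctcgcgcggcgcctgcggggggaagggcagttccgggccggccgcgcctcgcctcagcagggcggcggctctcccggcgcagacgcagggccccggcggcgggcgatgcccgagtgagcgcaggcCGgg

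Arf6 transcript, bases 11 to 40, with 2 called CpGs in capitals: tagcaggcagcttCGCGcaagccgggccgc

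The called CpGs at bases 24 and 26 after the start (chr6:91697132 and chr6:91697134 on rn6) were raised in L-DOPA and near 0 in L-DOPA + R. At base 24 the L-DOPA striata of rats 1, 2 and 3 had 53.1%, 40.5% and 12.5% on the control and 46.2%, 23.1% and 32.1% on the lesioned side. All L-DOPA + R striata but 1 were at 0% there, and the remaining one was at 2.78% (-36.1 points, q = 3.05e-07). At base 26 the range was 14.8% to 43.8% in L-DOPA and 0% to 2.17% in L-DOPA + R (-32.6 points, q = 3.64e-09). UNT fell between them, because rat 3 had 26.4% and 30.9% at base 24 and 26.2% and 36.4% at base 26, whereas rats 1 and 2 had 0% to 5.77%. A member at base 33 (chr6:91697141), in lower case above, was not called and had 7.5% to 55% in L-DOPA and 0% to 7.69% in L-DOPA + R. On the forward strand base 33 had 1.82% in L-DOPA and on the reverse strand 41.6%, while at base 24 both strands were raised, to 28.9% and 41.4%. The next CpGs, at bases 38 and 45, had 0% in the 4 L-DOPA and the 6 L-DOPA + R striata with reads and up to 7.14% and 7.69% in UNT.

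The third called CpG of Arf6, chr6:91697734, lies 602 bp further on. It had 11.7% to 31.7% in L-DOPA, 1.75% to 5.71% in L-DOPA + R and 1.05% to 21.8% in UNT, with the highest UNT values again in rat 3 (-19.3 points, q = 8.34e-09). Without cytosines at read ends its difference was -14.3 points (q = 0.537), and without replicate 1 of each treatment -16.4 points (q = 0.0149). All 3 called CpGs have a cytosine at a read end, and those at bases 24 and 26 were also called without such cytosines. For base 24 the difference was -35.9 points without replicate 2 (q = 0.0235). The CpG at base -4 had 13% to 37.5% in the 5 L-DOPA striata with reads, 0% to 14.3% in L-DOPA + R and 0% to 34.9% in UNT, so that the treatments overlapped. Between base -243 and base -149 the measured CpGs had at most 8.33% in L-DOPA, with reads in at most 3 of its 6 striata. In that stretch L-DOPA + R reached 18.2% at base -205 and 20% in the 1 striatum with reads at base -191, and UNT had 5.26% to 10% at base -191. Other CpGs past base 45 were raised in L-DOPA too, but not all. At chr6:91697254 the values were 6.06% to 26.2% in L-DOPA, 0% in L-DOPA + R and 0% to 19.1% in UNT. At chr6:91697811 they were 17.6% to 57.1%, 0% to 12.5% in the 5 L-DOPA + R striata with reads, and 0% to 40% in UNT. All striata had 0% at chr6:91697602. CpGs on the same reads are not independent measurements.

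**Figure D5:**
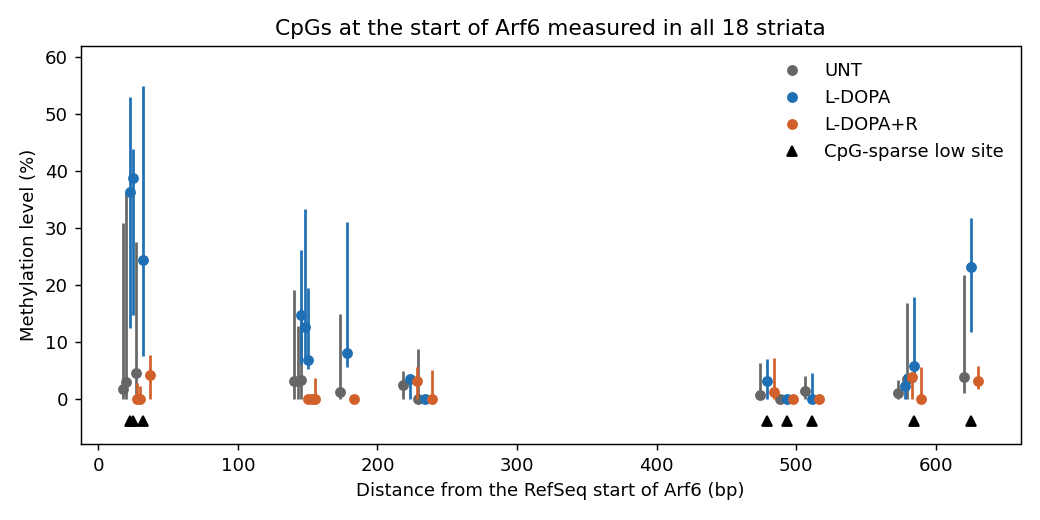
Methylation (vertical axis, percent) of the CpGs of Arf6 measured in all 18 striata against the distance from the RefSeq start of the gene (horizontal axis, bp), as the median of 6 striata with a line from the lowest to the highest, for each treatment (shifted slightly sideways so that the lines can be told apart; triangles are sparse low CpGs). At base 24 L-DOPA runs from 12.5% to 53.1% and L-DOPA + R from 0% to 2.78%.

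Whether the Riluzole difference itself depended on the side was tested with an interaction term. Of the 303723 CpGs with all 12 striata 0.000658% were called, and 0 of the sparse low CpGs (logistic model). At an unadjusted p under 0.05 there were 3789 (5.75%, against 6.12% of all CpGs), and 1677 by the F test (2.55%, against 2.89%).

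The second comparison set the lesioned against the control striatum of the same rats within a treatment. In UNT 0.00193% of 724400 CpGs were called and 3 of the sparse low CpGs, all lower on the lesioned side (0.000966% of all CpGs were called lower) and all with a cytosine at a read end. The UNT values of both sides also set which CpGs count as low, so the UNT calls are a description, while the treated sides are independent of the choice. In L-DOPA 0.00101% of 395600 CpGs were called and in L-DOPA + R 0.00176% of 397652, with 0 sparse low CpGs in either (logistic model). At an unadjusted p under 0.05 there were 2945 in L-DOPA (4.47%, against 5.4% of all CpGs) and 3849 in L-DOPA + R (5.85%, against 6.29%), and the F test had 318 (0.483%, against 0.763%) and 556 (0.844%, against 1.04%). With the rat as a replicate block UNT had 6 called CpGs (0.00911%, against 0.004% of all CpGs), L-DOPA 1 (0.00152%, against 0.00581%) and L-DOPA + R 2 (0.00304%, against 0.00805%). Leaving out 1 rat, without the block, gave 1 CpG in UNT without rat 1 (0.00255% of all CpGs called), which was none of the 3, 1 without rat 2 (0.00107%) and 4 without rat 3 (0.00484%), of which 1 and 2 were among the 3. The counts were 3 in L-DOPA without rat 1 (0.00245%) and 1 without rat 2 (0.0033%). With Riluzole they were 5, 2 and 1 without rats 1, 2 and 3 (0.00494%, 0.00741% and 0.00171%).

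The largest of these side differences was at chr4:81765635, with 29.3%, 25% and 27.6% in the control and 1.52%, 2.7% and 7.32% in the lesioned striata of UNT rats 1, 2 and 3. The groups did not overlap (-24.1 points, logistic model, q = 4.49e-05), and the control side lay above 20% throughout, so that the CpG met the limit through its lesioned side. In L-DOPA the same pairs were 24.5% and 5.26%, 0% and 6.67%, and 34% and 31%, so that the order held in 2 of 3 rats. In L-DOPA + R they were 0% and 12.8%, 36.4% and 31%, and 45.9% and 46.2%, and the order held in 1 of 3. At chr6:106592353 the UNT control striata had 19.1%, 19.6% and 14.3% and the lesioned 0%, 2.5% and 0% (-17 points, q = 9.35e-05). The control side was also the higher one in 2 of 3 L-DOPA rats (35.6% and 0%, 0% and 44%, 28.3% and 0%) and in 3 of 3 L-DOPA + R rats (30.8% and 27.3%, 37% and 26.3%, 33.3% and 23.4%). At chr4:41321316 they had 11.7%, 20.5% and 15.2% against 0%, 2.08% and 0% (-15.6 points, q = 0.0033), and the control side was higher in 1 of 3 rats of either other treatment. With a minimum of 20 reads the 3 differences were -13.6, -8.71 and -7.62 points (logistic model, q = 0.706, 0.799 and 0.428). When cytosines at read ends were left out, 0 sparse low CpGs were called between the sides in UNT (logistic model).

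Treated rats lay more than 30 points apart at 310 of the sparse low CpGs (0.471%). These 310 CpGs were chosen for that gap, so that larger differences between rats than within a rat follow from the choice. At these the striata of a rat differed by 8.84 points on average (8.16 to 9.9 over the 6 treated rats), rats of the same treatment by 21.7 points (15.5 to 26.9 over 24 pairs of striata) and rats of different treatments by 24.7 points. Over all sparse low CpGs the 3 averages were 3.15, 3.23 and 3.27 points. At 164 of the 310 (52.9%) a treatment held both a rat under 5% and a rat at 30% or more, and only 26 (8.39%) were among the 39 called for Riluzole. Of the 3720 values of treated striata at the 310 CpGs, 32.9% were under 5% and 37.9% at 5% to 35%. A further 22.4% were at 35% to 65%, 2.69% at 65% to 80% and 4.09% at 80% to 100%. At the 113 of them with neighbours over 80% these shares were 44.3%, 13.9%, 27.3%, 4.28% and 10.2%.

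The CpGs with the largest gap ran from almost no to almost full methylation over the treated rats. At chr8:56032884 UNT had 0% to 2.33%, and both treated groups ran from 0% to 100%, with L-DOPA rats averaging 49.6% ± 47.5 and L-DOPA + R rats 64.4% ± 55.9 (SD, n = 3). At chr7:41604327 L-DOPA ran from 0% to 100%, L-DOPA + R from 0% to 59.3% and UNT from 0% to 51.3%. At chr13:82783330 and chr19:43104257 the L-DOPA + R striata ran from 5.26% to 100% and from 0% to 100%, and UNT reached 63.9% and 48.1%. The treatments overlapped at each of these 4 CpGs.

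Some of these CpGs shared their raised rats with another along the chromosome. Taking a treated rat as raised at 20% or more, 5 of 12 pairs of the 310 CpGs within 1 kb had the same raised rats (41.7%), 7 of 14 at 1 to 100 kb (50%), 15 of 79 at 100 kb to 1 Mb (19%), 53 of 2093 further apart (2.53%) and 965 of 45272 on different chromosomes (2.13%). A run of 3 CpGs on chr9, named after its values were seen, spanned 256 kb: chr9:100729123 in an intron of Farp2, a guanine nucleotide exchange factor, chr9:100960006 in an intron of D2hgdh, the mitochondrial dehydrogenase of D-2-hydroxyglutarate, and chr9:100984696. All L-DOPA rats had 29.5% to 50.5% at these CpGs, rat 3 of L-DOPA + R had 90.9%, 87.1% and 73.2%, its rats 1 and 2 had 0% to 3.57%, and UNT had 0%. The chr16 pair with raised L-DOPA + R rats and the pair chr2:142732476 and chr2:142742283 with raised L-DOPA rats, 9807 bp apart, are other runs of this kind, and there were 25 in all.

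Against UNT the sparse low CpGs can only be described, since they were chosen by their UNT level and rises were favoured. For L-DOPA 0.351% of 654563 CpGs were called, 0.0828% higher and 0.269% lower, and of the sparse low CpGs 68 were higher and 27 lower. For L-DOPA + R 0.445% of 643889 were called, 0.0839% higher and 0.361% lower, and of the sparse low CpGs 54 were higher and 42 lower. With a minimum of 20 reads the latter were 26 and 37 (0.599% of all CpGs called), and with the reads of each rat added up 40 and 44 (0.481%). Without cytosines at read ends 0.0776% of all CpGs were called for L-DOPA and 0.132% for L-DOPA + R, and 0.0835% and 0.0759% of the sparse low CpGs. Both comparisons share the UNT striata. By the rule for named sites, rises in L-DOPA were led by chr12:30439494 and the D2hgdh CpG and falls by chr12:15161451 and the Ppil1 CpG. In L-DOPA + R they were chr13:19209692 and chr16:14831126, and the Cdh13 CpG and chr3:9257842 in Aif1l, which encodes an actin binding protein. The falls were of -16.5 to -18.8 points, close to the limit that a level under 20% allows. With a minimum of 20 reads the Aif1l difference was -9.23 points (logistic model, q = 0.291).

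Depth set how well a low level was known. The most reads, 164094 over the 18 striata, fell on chr8:181310, with 0.204% to 0.626% in a striatum, values of the size of the unconverted spike-in. At 27 bp from it chr8:181337 had 158708 reads and 3.2% to 4.29%, with UNT rats averaging 4.05% ± 0.0565, L-DOPA rats 3.94% ± 0.108 and L-DOPA + R rats 3.51% ± 0.0858 (SD, n = 3). The CpGs chr1:11915808 and chr1:11906724 came next, with 49842 and 40385 reads. The former had 1.83% to 4.23%, while the latter ran from 1.71% to 41.1% and had rats that differed by more than the striata of a rat. Of the CpGs without a methylated read the most deeply covered was chr19:28940053, with 2576 reads, which allows up to 0.116%, followed by chr4:56625889 (1850 reads, up to 0.162%), chr6:96858597 (1834 reads, up to 0.164%) and chr4:10929225 (1822 reads, up to 0.165%).

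At the limit of 20% the choice divided CpGs whose ranges overlapped. Just inside it lay chr1:32843916, with 14.9% to 32.2% in the UNT striata, and chr6:98697082, with 12.5% to 33.3%. Just outside were chr6:128819978, with 15.8% to 26.5%, and chr16:69131485, with 11.6% to 32.1%. In L-DOPA + R the first pair averaged 18.8% and 12.7% and the second 18.2% and 14.7%. Both strands were covered at 3273 of the sparse low CpGs (4.97%), and at 18 of these (0.55%) the strands differed by more than 20 points.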

How the data were processed

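Genomic DNA of the lesioned and control striatum of 9 rats was sequenced by RRBS. Per the labels and the methods, the authors trimmed reads (Trim Galore 0.4.0), aligned them to rn6 (Bismark 014.3; CASAVA is named too, all in the submitters' processing notes) and read the calls with methylKit. The deposited files list, per cytosine of a CpG and strand, the read coverage as a count and the percent of C and of T reads, which the authors did not normalize.

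From these, strands were merged after dropping cytosines covered by fewer than 10 reads. Methylated reads came from the coverage and the percent of C. Spike-in DNA and chromosomes other than chr1 to chr20 were not members. Each CpG of the whole table with all 6 striata (at least 4 of 6 in each group for both sides pooled, all 12 for the interaction) was tested with a logistic model, with a Pearson overdispersion of at least 1 and a chi-square test, written in Python 3.11.15 with numpy 2.4.6 and scipy 1.17.1 and tested on simulated data. The q is the Benjamini-Hochberg adjusted p over all CpGs tested, and differences are in points from summed reads, the first group minus the second. Error is the SD over 3 rats, each the mean of both striata. Low coverage makes single values coarse: 1 read of 10 is 10 points.

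The members, lists and tests were chosen with earlier results of these data known. Sites were named by rule: in each comparison up to 4 called members of smallest p with 1 direction in all comparisons of rats, the longest stretches, the most reads, the largest gaps between rats, the largest differences from neighbours and those at the limit. Gene names come from the study's list of called sites. RefSeq promoters on GRCr8 were matched by the spacing of CpGs: of 16 genes with a called promoter CpG, 11 were in the table and 1, Arf6, had at least 10 measured CpGs that all fell on a CG. A list of genes near members could not be made, since no rn6 annotation was used here.

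Both striata of a rat carry the same number in the labels and the series states that they come from the same animal. Deviations from the group mean correlated at 0.0332 to 0.111 for the same rat and at -0.0866 to 0.0405 for different rats. No striata were duplicates: 2 striata had the same count and methylation at 0.0373% to 2.25% of CpGs over 153 pairs. Alternatives were a minimum of 20 reads, an F test, no read-end cytosines, a replicate block, the rat as unit, leaving out each replicate, and other limits for sparse and low.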

Additional observations from a re-analysis of the deposited data

Results flagged for a closer look

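In 9 of 129 groups of 6 striata that were looked at, 1 striatum lay far from the other 5, and chance flags about 1 in 20 groups. Control striatum 3 of L-DOPA had 97.9% of the sparse low CpGs under 20%, against 96% to 96.7% in the other L-DOPA striata. It is also the L-DOPA striatum with a coverage ratio of 1.19, and the part of that ratio was not tested. At chr1:32843916, just inside the limit, UNT control striatum 1 had 32.2% and the others 14.9% to 19.7%. At chr2:142742283 the lesioned striatum of L-DOPA rat 1 had 59.4% and the others 28.6% to 39%. At chr4:41321316, which was called between the sides in UNT, control striatum 3 of L-DOPA had 23% (others 0% to 7.69%) and control striatum 2 of L-DOPA + R had 22.9% (others 0% to 4.17%).

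The other 4 cases were low values in a group otherwise at 0%. At chr6:91697132 in Arf6 control striatum 1 of L-DOPA + R had 2.78%. At chr16:14831126 the lesioned striatum of UNT rat 1 had 3.12% and that of L-DOPA rat 3 had 3.85%. At chr16:51026603 the lesioned striatum of L-DOPA rat 1 had 4.17%.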

How the results depend on the processing

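The CpGs of smallest p in each comparison and the called Arf6 CpGs were fitted again under the alternatives, and none of their differences changed sign, but the balance of higher and lower calls turned in 2 comparisons. For Riluzole in the pooled striata it was 14 higher and 25 lower, and 20 and 12 without the 4 striata with a high coverage ratio. For L-DOPA + R against UNT it was 54 and 42, but 26 and 37 with a minimum of 20 reads and 40 and 44 with the reads of each rat added up. The counts of sparse low CpGs called were 3 for the sides in UNT, 0 in L-DOPA and L-DOPA + R, 21, 23 and 39 for Riluzole in the control, lesioned and pooled striata, and 95 and 96 for L-DOPA and L-DOPA + R against UNT. The F test gave 0 for the sides in UNT and for the 3 Riluzole counts, with 0.99%, 0.831%, 0.811% and 3.72% of them at an unadjusted p under 0.05 (652, 547, 534 and 2449) against 1.11%, 1.15%, 1.19% and 3.93% of all CpGs, and 20 and 12 against UNT (0.0622% and 0.0578% of all CpGs called). A minimum of 20 reads gave 1 in UNT (0.00418% of all CpGs called), which was not among the 3. It gave 10, 13 and 21 for Riluzole (0.0359%, 0.0535% and 0.0742%) and 63 for L-DOPA + R against UNT (0.599%). Without read-end cytosines 0 were called in UNT (0.000449%), and 50 and 46 against UNT (0.0776% and 0.132%). With low set under 10% the Riluzole counts were 13, 13 and 25 and that of L-DOPA + R against UNT 57. With at most 2 other CpGs the latter was 58, and neither limit alters the share over all CpGs. Leaving out a replicate gave 1 to 4, 0 to 3 and 1 to 5 for the sides, 22 to 43, 23 to 37 and 38 to 73 for Riluzole, and 63 to 115 and 65 to 124 against UNT, while the share over all CpGs ran from 0.00107% to 0.00484%, 0.00139% to 0.0033% and 0.00171% to 0.00741% for the sides, 0.0244% to 0.0645%, 0.0301% to 0.0502% and 0.0438% to 0.113% for Riluzole, and 0.274% to 0.363% and 0.315% to 0.51% against UNT. The members numbered 34130 with at most 2 other CpGs and 22464 with 20 reads.

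With a replicate block the counts were 6, 1 and 2 for the sides, where both striata of a number are 1 rat. They were 64 and 58 for Riluzole in the control and lesioned striata (0.076% and 0.0766% of all CpGs called), where different rats share only a number. Correlations for the same number were -0.0589 to -0.0098 in the control and 0.00263 to 0.0107 in the lesioned striata. Over the alternatives that refit a CpG, these CpGs still passed q under 0.01 in 168 cases and no longer in 33. By the F test the 4 leading pooled Riluzole CpGs had q of 0.0133 to 0.0229, and the Arf6 CpGs 0.239 to 0.458. The 4 striata with a high coverage ratio were left out after seeing the data. Depth limits levels under about 1%, where unconverted cytosines cannot be told apart.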
